A study of Oryza sativa with 35 samples.

Results

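The levels of 6 rice genes of gibberellin metabolism and signalling, chosen by name among the 55801 loci of the count table, were compared between lines and tissues. OsGA20ox1 (LOC_Os03g63970) and OsGA20ox2 (LOC_Os01g66100) stand for synthesis, OsGA2ox1 (LOC_Os05g06670) and OsGA2ox3 (LOC_Os01g55240) for inactivation, and SLR1 (LOC_Os03g49990) and GID1 (LOC_Os05g33730) for signalling. OsGA20ox2 is SD1, the semi-dwarf gene of green revolution rice, and OsGA20ox1 is also known as GNP1, a gene for grain number per panicle. OsGA2ox1 is known in rice from a ring of cells around the vegetative shoot apex.

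Gibberellins are growth hormones whose amount in a tissue is set by making and by inactivating them. GA 20-oxidases and GA 3-oxidases carry out the last steps of synthesis, and GA 2-oxidases turn active gibberellins or their precursors into inactive forms. The receptor GID1 binds the hormone and then the DELLA protein SLR1, a repressor of the response, which is degraded through the F-box protein GID2. At shoot apices, KNOX homeodomain proteins, which mark meristem tissue, are known to repress a GA 20-oxidase gene in tobacco and to activate a GA 2-oxidase gene in maize.

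RNA of inflorescence meristems, the tips that form the branches and spikelets of the panicle, was counted by CEL-Seq2, which tags each captured RNA molecule near its 3′ end with a unique molecular identifier (UMI). The 35 libraries came from the japonica cultivar Koshihikari (5 libraries of tissue R1, 5 of R2, 3 of R4 and 3 of R5) and from NIL-Gn1 (8, 8, 1 and 2). NIL-Gn1 is by its name a near-isogenic line at Gn1, the locus of the cytokinin oxidase OsCKX2. The labels give neither its allele nor the meaning of the tissue codes. R1 and R2 are called early and R4 and R5 late by code number alone, so their order in time is an assumption. Plants of both lines grew in climate chambers with 10 h of light and 14 h of dark a day. As the labels name no separate plants behind the libraries of a group, the p-values rest on a spread among libraries that may be technical.

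Library totals were 76743 to 375071 UMIs, and the median was 109532 for Koshihikari libraries and 186188 for those of NIL-Gn1. Levels are in CPM, the UMIs of a locus scaled to a common library size. A library without a UMI of a gene leaves room for 3 UMIs. On raw totals this is 8.00 CPM at the greatest depth and 39.1 CPM at the least. On the scale of the levels given here it is 8.66 and 45.7 CPM. Koshihikari R2 replicates 1 and 5 stood at opposite ends of the second principal component, at scores of 76.5 and -62.6. All 5 meristem markers (OSH1, OSH15, TAW1, OsMADS34 and FON1) were detected in every group, and of 7 floral organ genes OsMADS1, OsMADS6, OsMADS7, OsMADS8 and OsMADS16 had 3 to 53 UMIs over all libraries, while OsMADS3 and OsMADS58 had 0.

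Of the 6 genes, OsGA20ox1 held 1218 UMIs over all libraries, GID1 1151, SLR1 1002 and OsGA2ox1 266, and these 4 passed the filter on low counts. OsGA20ox2 held 79 UMIs and OsGA2ox3 43, and neither passed. Each tested locus was compared with edgeR's quasi-likelihood test, with p-values adjusted over 7406 loci by the Benjamini-Hochberg method, and called at an adjusted p under 0.05. The plot of levels by library shows the 4 genes that passed.

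**Figure D1:**
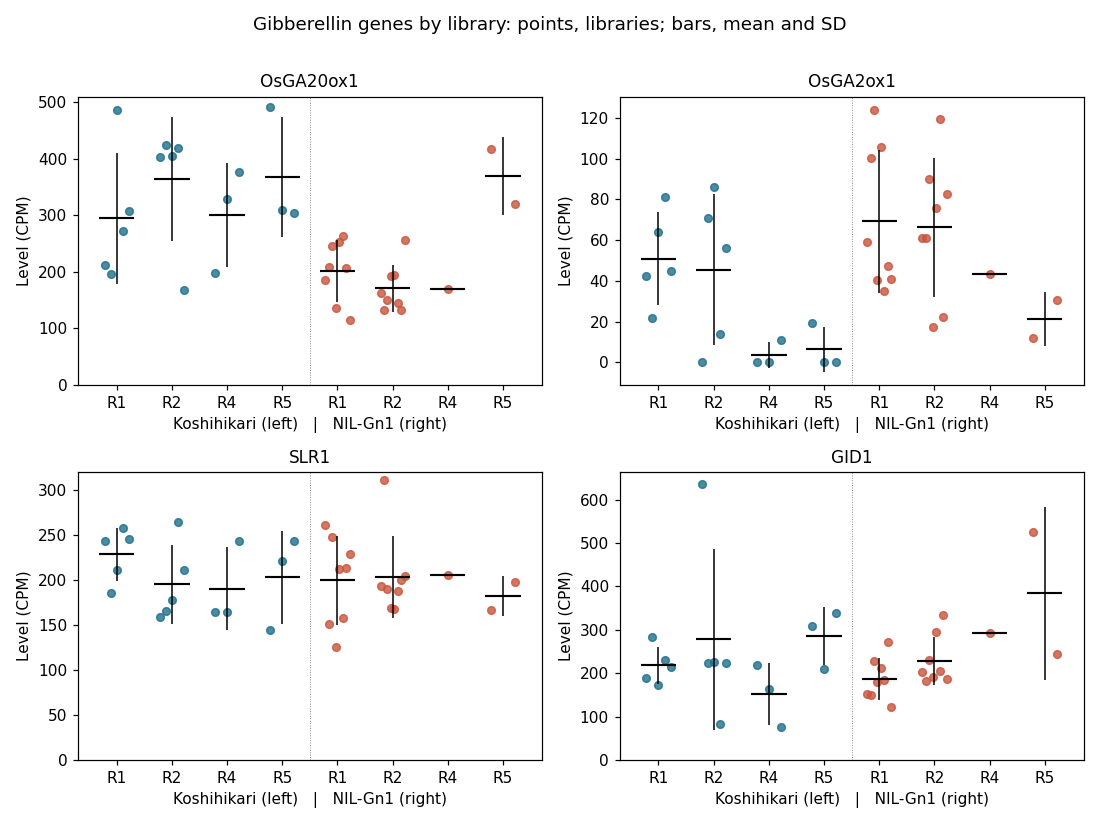
Level in CPM (vertical axis, linear) of OsGA20ox1, OsGA2ox1, SLR1 and GID1 in each library (points) of the 8 groups (horizontal axis), with group means (horizontal bars) and SD (vertical bars, where a group has more than 1 library). OsGA20ox1 lay between 114 and 263 CPM in NIL-Gn1 R1 and R2, and OsGA2ox1 had 0 UMIs in 4 of the 6 Koshihikari R4 and R5 libraries.

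The synthesis gene OsGA20ox1 was lower in NIL-Gn1 than in Koshihikari averaged over R1 and R2 tissue. In Koshihikari R1 its level was 212, 196, 486, 272 and 308 CPM in the 5 libraries, and in R2 it was 403, 425, 405, 418 and 169 CPM. In NIL-Gn1 the 8 R1 libraries ran from 114 to 263 CPM (median 208) and the 8 R2 libraries from 133 to 256 CPM (median 157). At R2, 4 of the 5 Koshihikari libraries lay above every NIL-Gn1 library, and replicate 5 lay inside the NIL-Gn1 range. At R1 the ranges overlapped.

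Averaged over R1 and R2, the log2 fold change of OsGA20ox1 in NIL-Gn1 against Koshihikari was -0.83 (SE 0.144, edgeR adjusted p = 4.07e-05). Loci called in this comparison were 2.32% of those tested, and 1.71% were called lower. At R2 alone the log2 fold change was -1.10 (SE 0.207, adjusted p = 0.000739), where 0.5% of loci were called and 0.432% were called lower. At R1 alone it was -0.56 (SE 0.202, adjusted p = 0.229), and none of the 4 tested members was called by edgeR, DESeq2 or limma-voom, although OsGA20ox1 had an unadjusted p under 0.05; 0.675% of all loci were called. R1 and R2 did not differ detectably in this line difference, with an interaction of -0.54 (SE 0.289, adjusted p = 0.831). With replicates 2 and 3 alone standing for Koshihikari R2, the line difference at R2 was -1.26 (edgeR adjusted p = 0.00222). Over R1 and R2 it was -0.91 (edgeR adjusted p = 3.31e-05). This choice leaves out replicate 5 (169 CPM), the Koshihikari R2 library inside the NIL-Gn1 range. A larger difference was thus built in, and these values are no added support. The lines also differed in library depth, and its part in the difference was not tested.

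In R5 tissue the levels of OsGA20ox1 overlapped between lines, while the 1 NIL-Gn1 R4 library lay below every Koshihikari R4 library. The log2 difference of NIL-Gn1 against Koshihikari was -0.82 at R4 and 0.04 at R5. Koshihikari R4 libraries held 197, 328 and 376 CPM and R5 libraries 491, 310 and 304 CPM. The single NIL-Gn1 R4 library held 170 CPM, and the R5 libraries 418 and 320 CPM. NIL-Gn1 R5 was thus above all 16 NIL-Gn1 libraries of R1 and R2, while NIL-Gn1 R4 was inside their range. Averaged over R4 and R5 the line difference was -0.39 (SE 0.256, adjusted p = 0.526). Against R1 and R2 of the same line, OsGA20ox1 in R4 and R5 differed by 0.01 (SE 0.185, adjusted p = 0.986) in Koshihikari, a direction that turned in several alternative fits, and by 0.44 (SE 0.226, adjusted p = 0.336) in NIL-Gn1. Ordered by mean level, the groups ran from NIL-Gn1 R5 (369 ± 69.0 CPM, SD, n = 2), Koshihikari R5 (368 ± 106, n = 3) and Koshihikari R2 (364 ± 110, n = 5) through Koshihikari R4 (301 ± 92.6, n = 3) and R1 (295 ± 116, n = 5) to NIL-Gn1 R1 (202 ± 54.3, n = 8), R2 (171 ± 41.9, n = 8) and R4 (170, n = 1). Every pair of neighbours in this order overlapped.

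OsGA20ox2 (SD1) did not pass the filter, and an edgeR fit without the filter did not call it in any comparison (the lowest adjusted p was 0.690, for late against early Koshihikari). It had at most 9 UMIs in any library and 0 UMIs in 5 of the 16 Koshihikari libraries and 3 of the 19 NIL-Gn1 libraries. Group means ran from 7.34 CPM in Koshihikari R4 to 30.1 CPM in Koshihikari R1, the latter with 1 library of 8 UMIs and 1 of 0. Over R1 and R2, 22 UMIs in Koshihikari against 45 in NIL-Gn1 gave a ratio of 1.09 (95% exact interval for counting error 0.621 to 1.85) once totals were taken into account. Over R1 and R2 against R4 and R5, the ratio was 2.33 (0.863 to 7.89) in Koshihikari and 1.24 (0.554 to 3.25) in NIL-Gn1. All these intervals contain 1, so a change was not detectable at this depth.

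**Figure D2:**
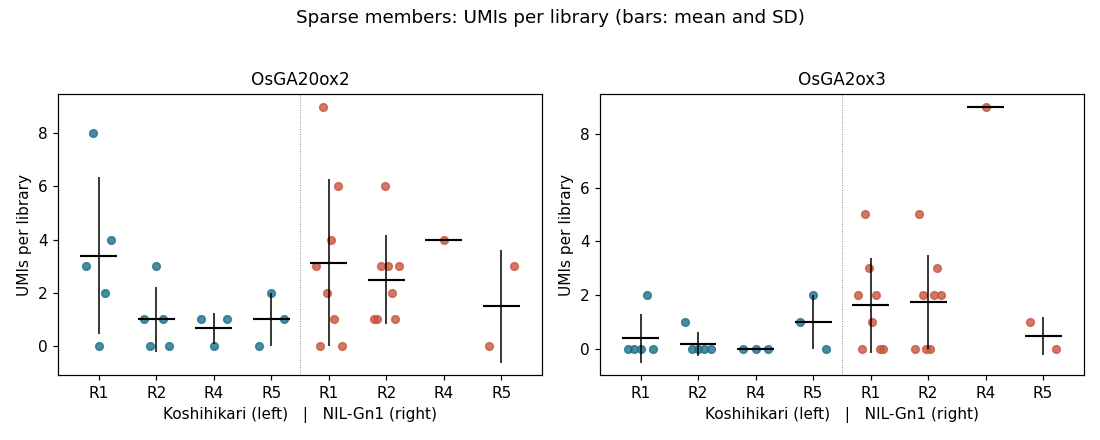
UMIs per library (vertical axis) of OsGA20ox2 and OsGA2ox3, the members below the filter on low counts, in the 8 groups (horizontal axis), with group means (horizontal bars) and SD (vertical bars). OsGA20ox2 has at most 9 UMIs in a library, and the 9 UMIs of OsGA2ox3 in NIL-Gn1 R4 come from 1 library.

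The inactivation gene OsGA2ox1 was lower in Koshihikari R4 and R5 than in Koshihikari R1 and R2. Its level in Koshihikari R1 was 42.3, 21.8, 64.2, 81.4 and 44.6 CPM, and in R2 it was 0, 70.8, 86.3, 13.9 and 56.2 CPM. In R4 a single UMI was found in 1 of 3 libraries (11.1 CPM), and in R5 2 UMIs were found in 1 of 3 libraries (19.2 CPM). The other 4 late libraries had 0 UMIs, and of the 10 early libraries R2 replicates 1 and 4 alone were at or below 19.2 CPM.

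Summed over libraries, OsGA2ox1 had 62 UMIs in Koshihikari R1 and R2 and 3 in R4 and R5, a ratio of 11.0 (95% exact counting interval 3.58 to 54.6; edgeR adjusted p = 0.00036). Of all tested loci 16.5% were called in this comparison and 7.6% were called lower. The adjusted p was between 2.82e-05 and 0.00493 in the 23 alternatives in which the gene was tested; the ratio was 26.9 (4.65 to 1079) without Koshihikari R5 replicate 2, which held 2 of the 3 late UMIs. The fitted log2 fold change of -3.20 moved to -4.71 without that library and to -4.37 without R4 replicate 4. For R4 against R2 alone, 6% of loci were called and 2.55% called lower, and OsGA2ox1 was called (adjusted p = 0.0303), but not with DESeq2 (0.0765), with limma-voom (0.128), or without R2 replicate 2 (0.0546), R2 replicate 3 (0.127), R4 replicate 2 (0.129) or R4 replicate 3 (0.143). These comparisons share libraries and do not support each other.

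In NIL-Gn1, OsGA2ox1 was detected in all 19 libraries. R1 libraries ran from 35.1 to 124 CPM (median 53.2), and R2 libraries from 17.5 to 120 CPM (median 68.5). The R4 library held 11 UMIs (43.5 CPM), and the R5 libraries held 2 UMIs each (11.9 and 30.5 CPM). The late libraries lay within or below the early range.

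The early-to-late difference of OsGA2ox1 in NIL-Gn1 was not called (186 against 15 UMIs, ratio 2.39, interval 1.41 to 4.35; log2 fold change -1.27, SE 0.521, adjusted p = 0.186). Without the R4 library the ratio was 4.38 (1.68 to 16.2). In that comparison edgeR and DESeq2 called none of the 4 members and limma-voom called 1, GID1, and OsGA2ox1 and GID1 had an unadjusted p under 0.05; 3.93% of loci were called. The interaction of line with late against early tissue was 1.92 on the log2 scale (SE 0.975, edgeR adjusted p = 0.386). That the early-to-late difference differs in size between lines was thus not shown. Between lines, OsGA2ox1 differed by 0.39 over R1 and R2 (SE 0.294, adjusted p = 0.586). Over R4 and R5 the counts were 15 UMIs (NIL-Gn1) and 3 UMIs (Koshihikari), with a ratio of 6.21 (1.76 to 33.5; adjusted p = 0.231). Without the NIL-Gn1 R4 library, which held 11 of the 15, the ratio was 3.38 (0.572 to 23.1), and without Koshihikari R5 replicate 2, which held 2 of the 3, it was 15.2 (2.34 to 641).

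The summed level of the meristem markers was lower in every late than in every early Koshihikari library, and early and late NIL-Gn1 libraries overlapped. It was 1279 to 1513 CPM in Koshihikari R1, 892 to 1546 in R2, 493.2 to 646 in R4 and 432 to 669 in R5. In NIL-Gn1 it was 965 to 1541 CPM in R1, 1053 to 1500 in R2, 976 in R4 and 776 to 1097 in R5. All 5 were detected in each group. Over all libraries TAW1 held 3508 UMIs, OSH1 1387, OSH15 762, FON1 104 and OsMADS34 99. The sum thus mostly follows TAW1, and the markers were not compared singly. The 6 photosynthetic genes in the table, markers of green tissue, summed to 159 to 414 CPM in Koshihikari R1, 165 to 478 in R2, 592 to 1361 in R4 and 1145 to 1972 in R5. In NIL-Gn1 they summed to 113 to 881 CPM in R1, 184 to 487 in R2, 403 in R4 and 412 to 925 in R5. In a group 4 to 6 of them were detected, with RBCS2 or RBCS5 at 0 in some. Most of their UMIs over all libraries were from CAB1R (1360) and CAB2R (649), and each of the others held at most 97. The 5 lateral organ markers, all detected in each group, summed to 719 to 1015 CPM in Koshihikari R1, 689 to 907 in R2, 933 to 996 in R4 and 1060 to 1232 in R5. In NIL-Gn1 they summed to 620 to 1026 CPM in R1, 482 to 919 in R2, 980 in R4 and 877 to 1234 in R5. The floral organ genes summed to at most 41.9 CPM in any early library and to between 0 and 52.1 CPM in the late ones. In bulk tissue, fewer cells of a type and less RNA per cell cannot be told apart. The part of these markers in the results on stage was not tested.

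OsGA2ox3 had 43 UMIs, of which 37 were in NIL-Gn1. Koshihikari had 2 UMIs in R1, 1 in R2, 0 in R4 and 3 in R5, and NIL-Gn1 had 13, 14, 9 and 1. Over R1 and R2 the count was 3 in Koshihikari and 27 in NIL-Gn1, a ratio of 0.247 (95% exact counting interval 0.0479 to 0.802). That interval covers counting error only: in an edgeR fit without the filter the adjusted p was 0.331. A difference between libraries of the lines was therefore not called.

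The balance of 20-oxidase and 2-oxidase UMIs is described without a test. The OsGA20ox1 and OsGA20ox2 share of the UMIs of all 4 metabolic members was 86.3% in Koshihikari R1 and R2 (95% exact Clopper-Pearson interval 82.8 to 89.2) and 97.1% in R4 and R5 (93.9 to 98.9). In NIL-Gn1 it was 71.9% in R1 and R2 (68.6 to 75.1) and 84.9% in R4 and R5 (78.6 to 90.0). Among NIL-Gn1 late libraries the single R4 library stood at 70.1% and the R5 libraries at 92.3% and 95.9%. Single early libraries ran from 75.0% to 97.1% in Koshihikari and from 54.3% to 92.9% in NIL-Gn1, so the lines overlapped. These shares leave out OsGA2ox6, OsGA2ox8 and OsGA2ox10, which held more UMIs than OsGA2ox1. Over all 3 GA 20-oxidase and 7 GA 2-oxidase genes with a UMI, the 20-oxidase share was 31.0% (28.5 to 33.6) in early and 41.1% (36.8 to 45.6) in late Koshihikari, and 21.1% (19.5 to 22.7) in early and 34.0% (29.4 to 38.8) in late NIL-Gn1. Which kind of gene holds more UMIs thus depends on the genes counted, and the order of these 4 shares was the same in both counts except that late NIL-Gn1 and early Koshihikari changed places. The intervals cover counting error only, and a share says nothing of amounts of the enzymes.

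The group means of SLR1, the DELLA repressor, were the closest together among the 4 tested members. They lay between 183 ± 21.97 CPM (NIL-Gn1 R5, n = 2) and 229 ± 29.7 CPM (Koshihikari R1, n = 5), and its ranges overlapped between all neighbouring groups in order of level. Koshihikari libraries held 185 to 258 CPM in R1, 159 to 265 in R2, 164 to 243 in R4 and 144 to 243 in R5. NIL-Gn1 libraries held 126 to 262 CPM in R1, 169 to 311 in R2, 205 in R4 and 167 to 198 in R5. The line difference over R1 and R2 was -0.06 on the log2 scale (SE 0.147, adjusted p = 0.911). The late-minus-early difference was -0.10 (SE 0.199, adjusted p = 0.783) in Koshihikari and -0.08 (SE 0.224, adjusted p = 0.909) in NIL-Gn1. The SEs leave room for changes of either sign, and the first and second of these values turned in sign in some alternative fits.

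GID1, the receptor, was highest on average in NIL-Gn1 R5, at 525 and 244 CPM, and lowest in Koshihikari R4, at 219, 164 and 77.4 CPM. Koshihikari R1 libraries held 190, 284, 174, 231 and 214 CPM, and R2 libraries 635, 224, 227, 83.7 and 225 CPM. Koshihikari R5 libraries held 308, 210 and 339 CPM, and the NIL-Gn1 R4 library 292 CPM. The 8 NIL-Gn1 R1 libraries ran from 123 to 272 CPM (median 182), and those of R2 from 183 to 334 CPM (median 205). The wide spread of Koshihikari R2 came from replicates 1 and 4.

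GID1 was not called in any comparison. Late minus early, its log2 difference was 0.73 in NIL-Gn1 (SE 0.252, adjusted p = 0.102) and -0.22 in Koshihikari (SE 0.249, adjusted p = 0.588), with an interaction of 0.95 (SE 0.355, adjusted p = 0.233). The NIL-Gn1 difference passed the threshold with limma-voom (adjusted p = 0.0225), with no filter (0.0238), with only the groups compared in the fit (0.0181), and without NIL-Gn1 R5 replicate 2 (0.0288), and it missed it in the other 22 alternatives. Between lines it was -0.23 over R1 and R2 (SE 0.181, adjusted p = 0.607), and 0.02 without Koshihikari R2 replicate 1. Over R4 and R5 it was 0.72 (SE 0.305, adjusted p = 0.275). Over the alternatives, GID1 ranged from 0.30 to 0.89 in this last comparison, from 0.34 to 0.91 for late against early NIL-Gn1 and from 0.55 to 1.13 for the interaction.

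The remaining comparisons gave no call among the 4 tested members. In R4 and R5 between lines edgeR called none, with OsGA2ox1 and GID1 at an unadjusted p under 0.05 (0.783% of loci were called over both tissues, 0.149% at R4 and 0.351% at R5). At R4 alone 2 members, OsGA20ox1 and OsGA2ox1, had an unadjusted p under 0.05, and at R5 0 had. For R2 against R1, 0 members had an unadjusted p under 0.05 in either line; 0% of loci were called in Koshihikari (439 at an unadjusted p under 0.05, and 0 with DESeq2 and with limma-voom) and 0.081% in NIL-Gn1. For R5 against R4 in Koshihikari 0% of loci were called (536 at an unadjusted p under 0.05, 1 with DESeq2 and 2 with limma-voom), and 1 member, GID1, had an unadjusted p under 0.05. In the interaction of line with late against early tissue 0.311% of loci were called, and 1 member, GID1, had an unadjusted p under 0.05. In that of line with R2 against R1 0% were called (446 at an unadjusted p under 0.05, and 0 with DESeq2 and with limma-voom), with 0 members at an unadjusted p under 0.05. DESeq2 and limma-voom also called 0 members in each comparison of this paragraph.

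Of 24 other gibberellin genes, 8 passed the filter, 10 had UMIs but did not pass, and 6 had 0 UMIs. On raw totals, 0 UMIs over all libraries allows up to 0.539 CPM. Those at 0 were OsGA20ox3 and OsGA3ox1 (synthesis), OsGA2ox2, OsGA2ox4 and OsGA2ox5 (inactivation), and SLRL2. In Koshihikari, late against early tissue, 1 of the 8 was called higher, 1 lower and 6 were not called, with a median log2 fold change of -0.34 against -0.06 over all loci; 16.5% of all loci were called in that comparison, so the count of 2 in 8 is no result about the list. In NIL-Gn1 2 were called lower and 6 were not called, with a median of -0.33 against -0.05 and 3.93% of all loci called. Between lines 0 of the 8 were called over R1 and R2 by edgeR, DESeq2 or limma-voom (0 at an unadjusted p under 0.05; 2.32% of all loci were called), and 1 was called higher in NIL-Gn1 over R4 and R5, where 0.783% of all loci were called.

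**Figure D3:**
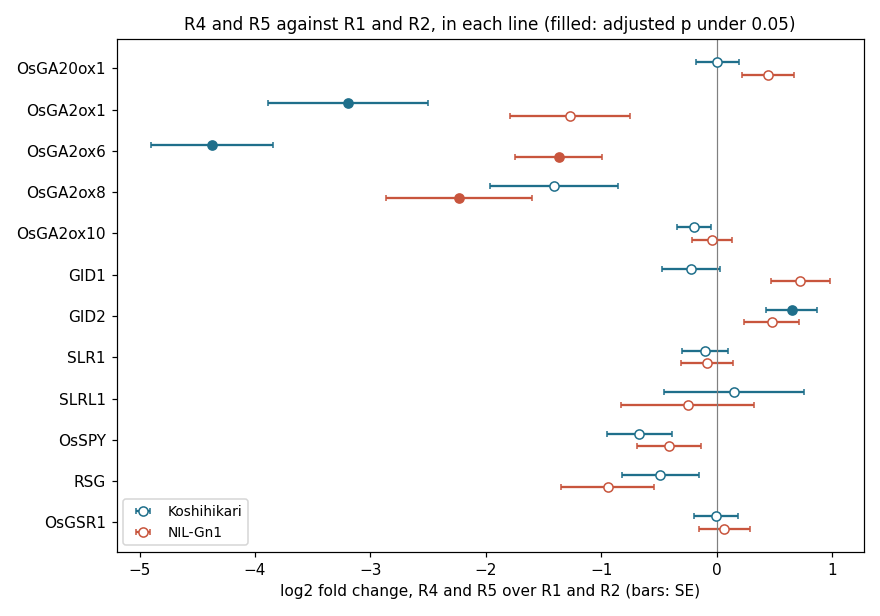
Log2 fold change (horizontal axis) of R4 and R5 over R1 and R2 in Koshihikari and NIL-Gn1 for the 12 gibberellin genes that passed the filter, with SE (bars) and filled points for an edgeR adjusted p under 0.05. OsGA2ox1 and OsGA2ox6 are called lower and GID2 is called higher in Koshihikari, and OsGA2ox6 and OsGA2ox8 are called lower in NIL-Gn1.

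OsGA2ox6, an enzyme known in rice to inactivate precursors of active gibberellins, was called lower in late tissue in both lines. In NIL-Gn1 the call held in 24 of 26 alternatives. It was lost without R5 replicate 1 and with replicate number as a block in the fit (log2 fold change -0.85). The single R4 library could not be left out. Koshihikari libraries held 65.4 to 319 CPM in R1 (median 143) and 24.4 to 189 CPM in R2 (median 126), against 0, 10.3 and 22.1 CPM in R4 and 0, 0 and 8.69 CPM in R5. Early and late Koshihikari libraries did not overlap in CPM, but R2 replicate 1 (24.4 CPM) and R4 replicate 4 (22.1 CPM) held 2 UMIs each. The share of all loci that separate in this way was not counted. NIL-Gn1 libraries held 86.6 to 195 CPM in R1 and 82.6 to 246 CPM in R2, against 43.5 CPM in R4 and 47.7 and 91.4 CPM in R5. The higher R5 library lay inside the early range.

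In Koshihikari, OsGA2ox6 had 176 early and 4 late UMIs, a ratio of 23.4 (95% exact counting interval 8.96 to 86.6; edgeR adjusted p = 6.58e-10). The ratio was 39.6 (10.8 to 330) without R4 replicate 4, and the fitted log2 fold change of -4.37 was -5.47 without R5 replicate 5. For R4 against R2 alone it had 3 against 61 UMIs (ratio of R2 over R4 11.7, 3.83 to 58.4; adjusted p = 0.000878), and 23.9 (4.13 to 958) without R4 replicate 4. In NIL-Gn1 it had 357 early and 25 late UMIs (ratio 2.75, 1.83 to 4.30; log2 fold change -1.37, SE 0.380, adjusted p = 0.0206). Leaving out NIL-Gn1 R5 replicate 1 ended this call (-1.10, adjusted p = 0.311).

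Over R4 and R5, OsGA2ox6 was higher in NIL-Gn1 than in Koshihikari, with 25 against 4 UMIs (ratio 7.76, 2.68 to 30.7; adjusted p = 0.0287). It missed the threshold under limma-voom (0.0844) and when the fit left out Koshihikari R4 replicate 2 (0.0649), R4 replicate 3 (0.0625), R5 replicate 2 (0.077) or R5 replicate 3 (0.0688), or NIL-Gn1 R5 replicate 2 (0.0869). Without Koshihikari R4 replicate 4 the ratio was 13.2 (3.29 to 115), and without R5 replicate 5 the fitted log2 difference was 4.03 in place of 2.93. The difference between lines in the early-to-late change was 3.00 on the log2 scale (SE 0.773, adjusted p = 0.0548) and was not called; over the alternatives its adjusted p ran from 0.00793 to 0.114, under 0.05 in 10 of 43.

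OsGA2ox8 was lower in late than in early NIL-Gn1 tissue, with 295 early and 12 late UMIs (ratio 4.73, 2.67 to 9.26). The log2 fold change was -2.24 (SE 0.633, edgeR adjusted p = 0.0359). The 3 late libraries held 15.8, 41.8 and 15.2 CPM, and the early ones 32.7 to 186 CPM. It too missed the threshold under limma-voom (0.058) and when NIL-Gn1 R1 replicate 2 (0.0508), R1 replicate 3 (0.0523), R5 replicate 1 (0.175) or R5 replicate 2 (0.0903) was left out. In Koshihikari it had 102 early and 21 late UMIs (ratio 2.58, 1.60 to 4.34; adjusted p = 0.0795), and 12 of the late UMIs were in R5 replicate 3, without which the log2 fold change of -1.41 was -2.30 (adjusted p = 0.00249).

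OsGA2ox10 was not called late against early in Koshihikari (adjusted p = 0.386) or NIL-Gn1 (adjusted p = 0.945). Its group means ran from 391 to 506 CPM. Whether its change differed from that of the other genes was not tested.

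**Figure D4:**
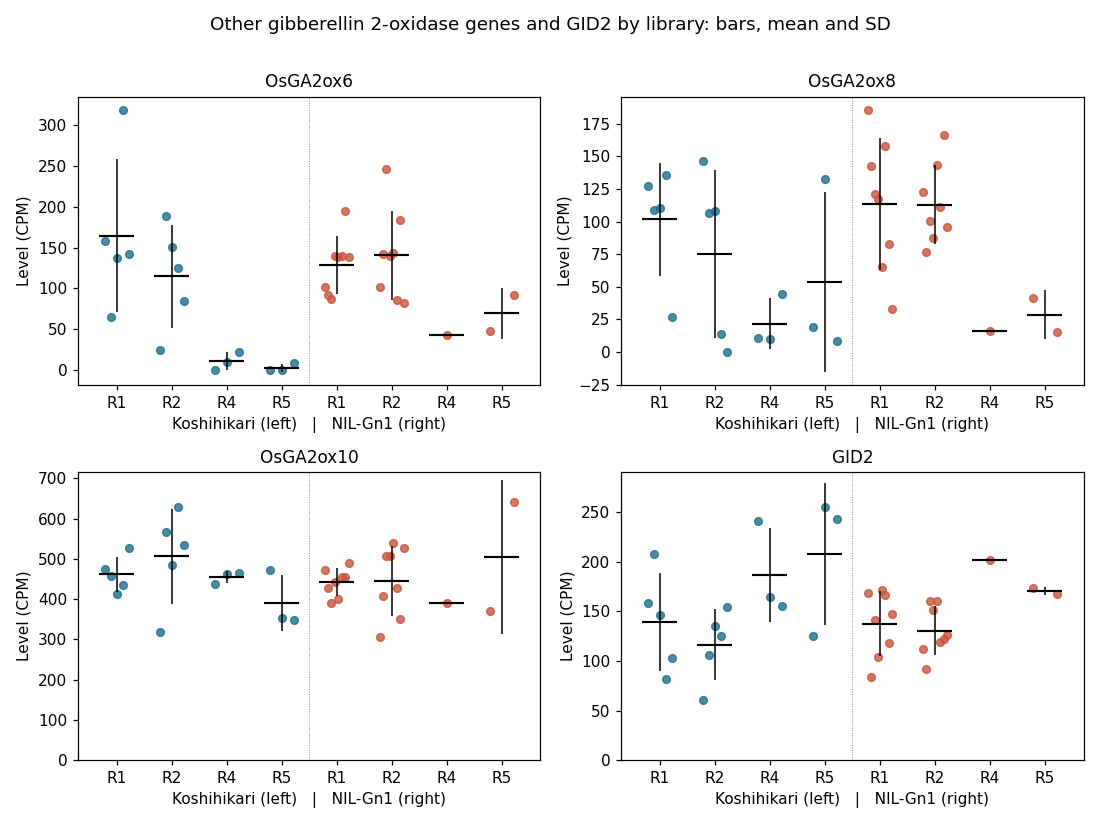
Level in CPM (vertical axis, linear) of OsGA2ox6, OsGA2ox8, OsGA2ox10 and GID2 in each library (points) of the 8 groups (horizontal axis), with group means (horizontal bars) and SD (vertical bars). OsGA2ox6 is at or below 22.1 CPM in the 6 Koshihikari R4 and R5 libraries.

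Among signalling genes, GID2 was higher in late than in early Koshihikari tissue. Group means were 139 ± 49.3 CPM in R1 (n = 5), 116 ± 35.5 in R2 (n = 5), 187 ± 47.4 in R4 (n = 3) and 208 ± 71.7 in R5 (n = 3), with a log2 fold change of 0.65 (SE 0.223, adjusted p = 0.0294). The call was lost in 8 of 25 alternatives, with adjusted p-values up to 0.121 without Koshihikari R4 replicate 2; the others were no filter (0.0623), Koshihikari R2 reduced to replicates 2 and 3 (0.0645), and leaving out R1 replicate 4 (0.0567), R1 replicate 5 (0.0541), R2 replicate 1 (0.0522), R5 replicate 3 (0.0898) or R5 replicate 5 (0.0871). In NIL-Gn1 the difference was 0.48 (SE 0.241, adjusted p = 0.329). SLRL1, an SLR1-like protein without the DELLA domain, had group means of 15.6 to 53.8 CPM. OsSPY, a negative regulator of the response, had means of 66.9 to 139 CPM. RSG had means of 31.6 to 88.2 CPM, and OsGSR1, a gene known in rice to be induced by gibberellin, of 210 to 272 CPM. None of these 4 was called over early or late tissue between lines, or late against early within a line.

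Genes of the first steps of synthesis were near the limit of detection. OsCPS1 had 16 UMIs, OsKS1 44, OsKO2 70 and OsKAO 25 over all libraries. OsGA3ox2 (D18), which makes the active hormone, had 9 UMIs, all in NIL-Gn1 R1 and R2; against 0 in Koshihikari R1 and R2 the upper bound of the Koshihikari over NIL-Gn1 ratio was 1.12, so a line difference was not detectable. OsGA20ox4 had 7 UMIs, OsGA2ox7 43, OsGA2ox9 11, EUI1 1 and OsGAMYB 15. OsGA2ox7 had 2 UMIs in Koshihikari R1, 1 in R2, 9 in R4 and 3 in R5. In NIL-Gn1 it had 13, 10, 4 and 1. An edgeR fit without the filter put it higher in late than in early Koshihikari tissue but did not call it (log2 fold change 2.45, SE 0.911, adjusted p = 0.0954). In NIL-Gn1 that log2 fold change was 0.02.

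Loci whose levels were most like those of a member were found by Pearson's r of log2(CPM + 1) over the 35 libraries among the other 7405 tested loci. OsGA2ox1 was most like LOC_Os01g11414 (r = 0.822) and LOC_Os06g43600 (0.814). TAW1, a regulator of inflorescence meristem activity and one of the meristem markers, ranked 3 for OsGA2ox1 (r = 0.803), and OsGA2ox6 ranked 9 (0.747). OsGA20ox1 was most like LOC_Os02g55060 (0.712) and LOC_Os01g08860 (0.683), GID1 like LOC_Os01g09620 (0.718) and LOC_Os01g48930 (0.681), and SLR1 like LOC_Os02g46962 (0.590) and LOC_Os03g55100 (0.557). The points share groups and library depth, so these values describe the libraries and carry no test.

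**Figure D5:**
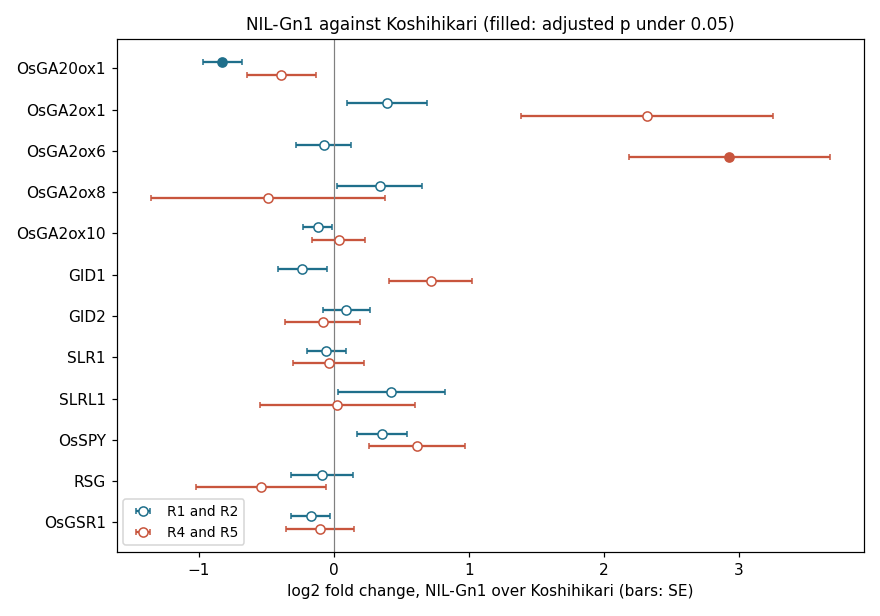
Log2 fold change (horizontal axis) of NIL-Gn1 over Koshihikari, averaged over R1 and R2 or over R4 and R5, for the 12 gibberellin genes that passed the filter, with SE (bars) and filled points for an edgeR adjusted p under 0.05. OsGA20ox1 is called lower in R1 and R2, and OsGA2ox6 is called higher in R4 and R5.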

How the data were processed

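Raw UMI counts per MSU locus, not normalized, were deposited by the authors for 35 CEL-Seq2 libraries. Per the submitters' processing notes, Bowtie2 and Subread 2.1 were used; what each did, and on which genome build and annotation, is not given in the sources used here. Per the labels' protocols, 100 pg of RNA per library was amplified and followed by 11 to 15 PCR cycles.

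The main test was edgeR 4.0.16 (R 4.3.3): TMM scaling, filterByExpr and a robust quasi-likelihood fit to 8 groups of line and tissue code. The 7406 loci that passed held 86.7% of UMIs, and their common dispersion gave a biological coefficient of variation of 21.1%. Levels are CPM over these loci with TMM factors. The SE is the log2 fold change divided by the square root of F. Late means the average of R4 and R5, early that of R1 and R2. Counting intervals are exact, at 95%, use raw totals and cover counting error only. The fit was tested on simulated data. Alternatives were RLE and upper quartile scaling, no filter, a mean of at least 10 counts, DESeq2 1.42.0, limma-voom (limma 3.58.1), only the groups compared, a replicate block, Koshihikari R2 reduced to replicates 2 and 3, and leaving out each library.

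The members, lists, contrasts and alternatives were chosen with earlier results of these data known. Named were the 6 members, every other listed gibberellin gene that passed the filter, counts for the rest, and for each tested member the 2 loci with the highest r and listed genes among the first 20. Gene symbols come from a hand-written list. In the RefSeq table (another assembly, used for names only) SD1, SLR1 and GID1 were on the same chromosome as listed. OsGA20ox1, OsGA2ox1 and OsGA2ox3 were not found by symbol and rest on the list alone. Of the 24 other gibberellin genes, 10 were found by symbol on the listed chromosome. OsGA2ox6 (LOC_Os04g44150), OsGA2ox8 (LOC_Os05g48700), OsGA2ox10 (LOC_Os05g11810), RSG and OsGSR1 were not found, so these names too rest on the list alone. Of 83 pairs of libraries within a group none was a duplicate (lowest chi-square per degree of freedom 1.30). Sequences were not used here. Tables and plots were made with Python 3.11.15, pandas 2.3.3, numpy 2.4.6, scipy 1.17.1 and matplotlib 3.10.9.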

Additional observations from a re-analysis of the deposited data

Results flagged for a closer look

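Each of the 6 members was looked at in each of 4 groups of 5 or 8 libraries, 24 sets of values in all, and in 5 sets 1 library lay far from the rest. Chance flags about 1 in 20 such sets, a rate that does not hold for counts of mostly 0. OsGA20ox1 was 169 CPM (12 UMIs) in Koshihikari R2 replicate 5, against 403 to 425 CPM in the other 4. GID1 was 635 CPM (52 UMIs) in Koshihikari R2 replicate 1, against 83.7 to 227 CPM. SLR1 was 311 CPM (61 UMIs) in NIL-Gn1 R2 replicate 2, against 169 to 204 CPM. OsGA2ox3 was 13.6 CPM (2 UMIs) in Koshihikari R1 replicate 4 and 12.2 CPM (1 UMI) in Koshihikari R2 replicate 1, with 0 UMIs in the other libraries of each group, so that any single UMI stands apart.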

How the results depend on the processing

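The number of members called was unchanged in the other comparisons under every alternative fitted, and moved in 3. For R4 against R2 in Koshihikari it was 1, and 0 with DESeq2, with limma-voom, with a mean of at least 10 counts and with only the groups compared, with 0 to 1 when single libraries were left out. For late against early Koshihikari it was 1, and 0 with a mean of at least 10 counts and with only the groups compared. In both of these Koshihikari comparisons OsGA2ox1 did not pass the filters of those 2 alternatives, and so was not tested in them. For late against early NIL-Gn1 it was 0, and 1 (GID1) with no filter, with limma-voom and with only the groups compared, with 0 to 1 when single libraries were left out. The OsGA20ox1 difference between late and early Koshihikari (0.01) reversed to -0.041 with upper quartile scaling, -0.007 with a mean of at least 10 counts, with limma-voom and with the replicate block, -0.019 with only the groups compared and -0.062 when replicates 2 and 3 alone stood for Koshihikari R2, and ran from -0.09 to 0.128 when single libraries were left out. The SLR1 line difference over R1 and R2 reversed to 0.014 with no filter and 0.016 with that reduced Koshihikari R2, and ran from -0.11 to 0.008 when single libraries were left out. Leaving out single libraries gave -0.202 to 0.033 for SLR1 late against early in Koshihikari, and for GID1 -0.382 to 0.041 in that comparison and -0.325 to 0.02 between lines over R1 and R2. The causes were not tested. OsGA20ox1 stayed called between lines at R2 in 22 of 22 alternatives (-1.26 to -1.002) and over R1 and R2 in 35 of 35 (-0.91 to -0.72). Same-numbered libraries did not deviate together (64 pairs, median r -0.00614, against -0.00073 in 414 pairs of different number). Counting noise at this depth lowers such values, so the check cannot exclude a shared batch. With the replicate block OsGA20ox1 differed by -1.13 at R2 (adjusted p = 0.00467), members called were 1 at R2, over R1 and R2 and for both stage comparisons in Koshihikari, and 0 otherwise, and OsGA2ox6 was no longer called late against early in NIL-Gn1 (-0.85, adjusted p = 0.383). Loci called moved over 1.5-fold in some alternatives: 50 became 34 to 112 for the lines at R1, 37 became 15 to 53 at R2, 11 became 3 to 13 at R4, 26 became 4 to 27 at R5, 172 became 100 to 226 over R1 and R2 and 58 became 27 to 72 over R4 and R5; for stages, 6 became 0 to 28 (R2 against R1, NIL-Gn1), 444 became 201 to 446 (R4 against R2), 0 became 0 to 4 (R5 against R4), 291 became 92 to 428 (late against early, NIL-Gn1) and 23 became 18 to 45 for its interaction with line. Leaving out the only NIL-Gn1 R4 library was not run for comparisons that need it, since they then cannot be fitted. Depth limits OsGA20ox2, OsGA2ox3 and late OsGA2ox1, and the single NIL-Gn1 R4 library limits the comparisons that use late NIL-Gn1 tissue.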
